A study of Mus musculus with 32 samples.

Results

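The cytochrome P450 genes outside the Cyp2b subfamily made up 53 of the 24523 gene names measured in mouse brown adipose tissue. They were chosen by name alone, as every probe whose gene name is Cyp, digits, a subfamily letter and digits, without names that begin with Cyp2b. The array carries 87 such names on 118 probes, and 34 of the names had no probe that passed the study's filter on dim signal. The 53 measured genes had 72 of the 37306 probes kept and belong to 12 families. CYP2 had 30 genes, CYP4 had 11, CYP1 and CYP27 had 2 each, and CYP3, CYP7, CYP17, CYP20, CYP21, CYP26, CYP39 and CYP46 had 1 each. The filter keeps a gene that is bright in a single group, so the counts given here do not stand for all P450 genes. Another 10 names fall outside the rule through a trailing letter, a suffix or a missing letter, such as Cyp3a41a and Cyp51, and 6 of these were measured.

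Interscapular brown adipose tissue of 32 C57BL6/J male mice was profiled on Agilent 1-colour arrays, 1 mouse to an array, in 4 groups of 8. Total ChREBP-KO mice lack the ChREBP gene Mlxipl throughout the body, and their WT littermates form the total-line WT group. In ChREBPβ-KO mice CRISPR/Cas9 removed the first exon of the β isoform throughout the body, and their own WT littermates form the β-line WT group. Every mouse had been fasted for 24 h and then refed for 18 h with 20% glucose in the drinking water, so no group shows the tissue without refeeding, and a whole-body deletion does not tell a change that starts in brown fat from one that starts elsewhere. All levels below are log2 of the normalized median intensity of a gene's brightest probe. A level is compared between arrays for the same probe, never between probes.

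P450 enzymes are haem proteins that insert oxygen into small molecules with electrons from NADPH, passed on by the reductase Por in the endoplasmic reticulum and by ferredoxin in mitochondria. Families CYP1 to CYP3 are best known for oxidising drugs and pollutants in the liver. CYP4, CYP2J and CYP2U act on fatty acids and eicosanoids, CYP7, CYP27A, CYP39 and CYP46 on oxysterols and bile acid precursors, CYP17 and CYP21 on steroid hormones, and CYP26, CYP27B and CYP2R on vitamins A and D. Many of the drug-oxidising genes are hallmarks of the hepatocyte, and brown fat is not known as a main site for them.

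Some facts of the whole series bear on these genes. The brightest Mlxipl probe lay at 13.49 to 13.91 in total ChREBP-KO mice against 15.98 to 16.33 in their littermates, and at 14.68 to 14.99 in ChREBPβ-KO mice against 16.15 to 16.55. Other Mlxipl probes read differently. In total ChREBP-KO and ChREBPβ-KO mice the log2 difference was -0.77 and -1.14 for one, and 0.14 and -0.08 for another (limma adjusted p = 0.0680 and 0.625). Where these probes lie relative to the exon removed from the β line was not assigned. The 7 brown adipocyte markers were well above background on every array, with Ucp1 between 18.22 and 18.62. In total-line WT and total ChREBP-KO mice Elovl3 lay at 13.62 to 14.68 and 9.88 to 12.28. Dio2 lay at 12.18 to 13.77 and 15.02 to 15.61, and Ppargc1a at 11.93 to 13.16 and 13.38 to 13.98. Cox8b lay at 17.40 to 17.60 and 17.84 to 18.09, and Ebf2 at 10.42 to 10.86 and 10.87 to 11.36. Ucp1 and Cidea overlapped between these groups, and the β-line groups overlapped for all 7 markers. Albumin (Alb), the plasma protein made by hepatocytes, ranged from 5.02 to 15.36 over the 32 arrays. Its lowest, median and highest levels were 5.67, 8.63 and 13.40 in total-line WT mice, 5.25, 5.79 and 10.79 in total ChREBP-KO mice, 5.26, 11.47 and 15.36 in β-line WT mice and 5.02, 12.62 and 14.89 in ChREBPβ-KO mice. The mean of 14 liver markers, all measured, ranged over 6.27 to 11.31, 6.53 to 9.04, 6.27 to 13.26 and 6.21 to 12.96 in the same order. On 10 arrays Alb was more than 2 above its median, and these were 1 total-line WT, 0 total ChREBP-KO, 4 β-line WT and 5 ChREBPβ-KO arrays. In bulk tissue, fewer cells of a type and less RNA per cell cannot be told apart.

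The sequence just before the start of 6 genes is shown because the patterns below turn on them: Cyp2a12 and Cyp2c29 for the genes that moved with albumin, Cyp2e1 and Cyp2f2 for the largest changes in total ChREBP-KO mice, Cyp1a1 for the largest difference between the WT groups, and Cyp4v3 as a member with a CACGTG match that was called in total ChREBP-KO mice. Each is 250 bases from RefSeq on build GRCm38.p6, 5′ to 3′ on the gene's strand. Capitals mark matches on either strand to CACGTG (the E-box core, which ChREBP and many other factors can bind), GCGTG (the core bound by the aryl hydrocarbon receptor), AGGTCA (a nuclear receptor motif) or GTTAAT (a motif of the hepatocyte factor HNF1). No motif contains another, and no marked matches overlap in these stretches.
Cyp2a12: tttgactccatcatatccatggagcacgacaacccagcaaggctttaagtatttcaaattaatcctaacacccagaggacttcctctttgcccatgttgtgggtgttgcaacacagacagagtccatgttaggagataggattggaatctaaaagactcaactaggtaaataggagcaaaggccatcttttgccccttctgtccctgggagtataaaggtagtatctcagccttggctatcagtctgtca
Cyp2c29: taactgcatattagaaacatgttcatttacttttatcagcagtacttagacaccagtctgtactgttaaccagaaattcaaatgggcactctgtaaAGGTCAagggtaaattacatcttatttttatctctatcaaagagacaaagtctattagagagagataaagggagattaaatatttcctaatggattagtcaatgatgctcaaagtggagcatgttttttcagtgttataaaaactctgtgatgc
Cyp2e1: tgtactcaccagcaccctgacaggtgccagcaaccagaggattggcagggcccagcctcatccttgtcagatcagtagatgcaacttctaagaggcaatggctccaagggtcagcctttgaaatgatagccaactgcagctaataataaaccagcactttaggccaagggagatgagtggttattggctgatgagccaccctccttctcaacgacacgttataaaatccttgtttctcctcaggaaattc
Cyp2f2: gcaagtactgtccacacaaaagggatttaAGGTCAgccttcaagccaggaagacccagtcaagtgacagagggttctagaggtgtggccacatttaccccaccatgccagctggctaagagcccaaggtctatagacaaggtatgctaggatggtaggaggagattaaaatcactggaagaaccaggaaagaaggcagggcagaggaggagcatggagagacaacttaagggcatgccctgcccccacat
Cyp1a1: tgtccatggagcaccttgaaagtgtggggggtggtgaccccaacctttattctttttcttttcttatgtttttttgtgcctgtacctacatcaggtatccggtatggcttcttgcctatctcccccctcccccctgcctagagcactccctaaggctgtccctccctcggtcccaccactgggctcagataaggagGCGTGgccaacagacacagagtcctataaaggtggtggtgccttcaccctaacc
Cyp4v3: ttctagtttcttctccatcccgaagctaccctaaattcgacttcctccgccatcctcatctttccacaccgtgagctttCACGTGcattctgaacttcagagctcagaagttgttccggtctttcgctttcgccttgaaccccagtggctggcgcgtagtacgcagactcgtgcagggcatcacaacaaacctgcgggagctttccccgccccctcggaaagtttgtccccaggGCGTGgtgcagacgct

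These stretches lie at chr7:27028840-27029089, chr19:39286835-39287084, chr7:140763569-140763818, chr7:27119705-27119954 and chr9:57697363-57697612 on the plus strand and at chr8:45333164-45333413 on the minus strand. Cyp2c29 and Cyp2f2 have 1 AGGTCA match each, Cyp1a1 has 1 GCGTG match, and Cyp4v3 has 1 CACGTG and 1 GCGTG match. The stretches of Cyp2a12 and Cyp2e1 hold none of the 4 motifs. Windows were found by symbol for 40 of the 53 genes, 44 windows in all. CACGTG was in 4.55% of them beside 6.02% of the 32851 windows of all genes, GCGTG in 29.5% beside 28.2%, AGGTCA in 5 of them beside 4607 of all and GTTAAT in 9.09% beside 6.43%. A match is a description of letters and not a binding site.

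A group of 18 P450 genes rose and fell with albumin from array to array within the groups, and the other 35 fell short of the limit set for this. To separate them, the 4 group means were removed from each gene and from Alb, and the values left were correlated over the 32 arrays. The arrays were normalized together and share slides and washes, so r is given as a description. At an r of at least 0.7, 18 of the 53 members followed Alb, beside 0.918% of all gene names. The 18 were Cyp2a4, Cyp2a12, Cyp2c29, Cyp2c37, Cyp2c38, Cyp2c67, Cyp2c68, Cyp2c70, Cyp2d9, Cyp2d10, Cyp2d40, Cyp2e1, Cyp2f2 and Cyp3a11 of the drug-oxidising families, Cyp4a10, Cyp4a31 and Cyp4f14 of the fatty acid hydroxylases, and Cyp7b1 of the oxysterol hydroxylases. The members just inside the limit were Cyp2e1 at 0.73 and Cyp2c38 at 0.77, and those just outside were Cyp2d11 at 0.68 and Cyp2d26 at 0.67. By ranks Cyp2e1 was at 0.697, under the limit. With the group means left in, r was -0.06 for Cyp2e1 and 0.26 for Cyp2f2. With the mean of the liver markers in place of Alb, Cyp2d11, Cyp2d26 and Cyp2d12 had an r of 0.78, 0.78 and 0.73. The median r was 0.87 in the 18 genes, 0.04 in the other 35 and -0.04 over all gene names.

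**Figure D1:**
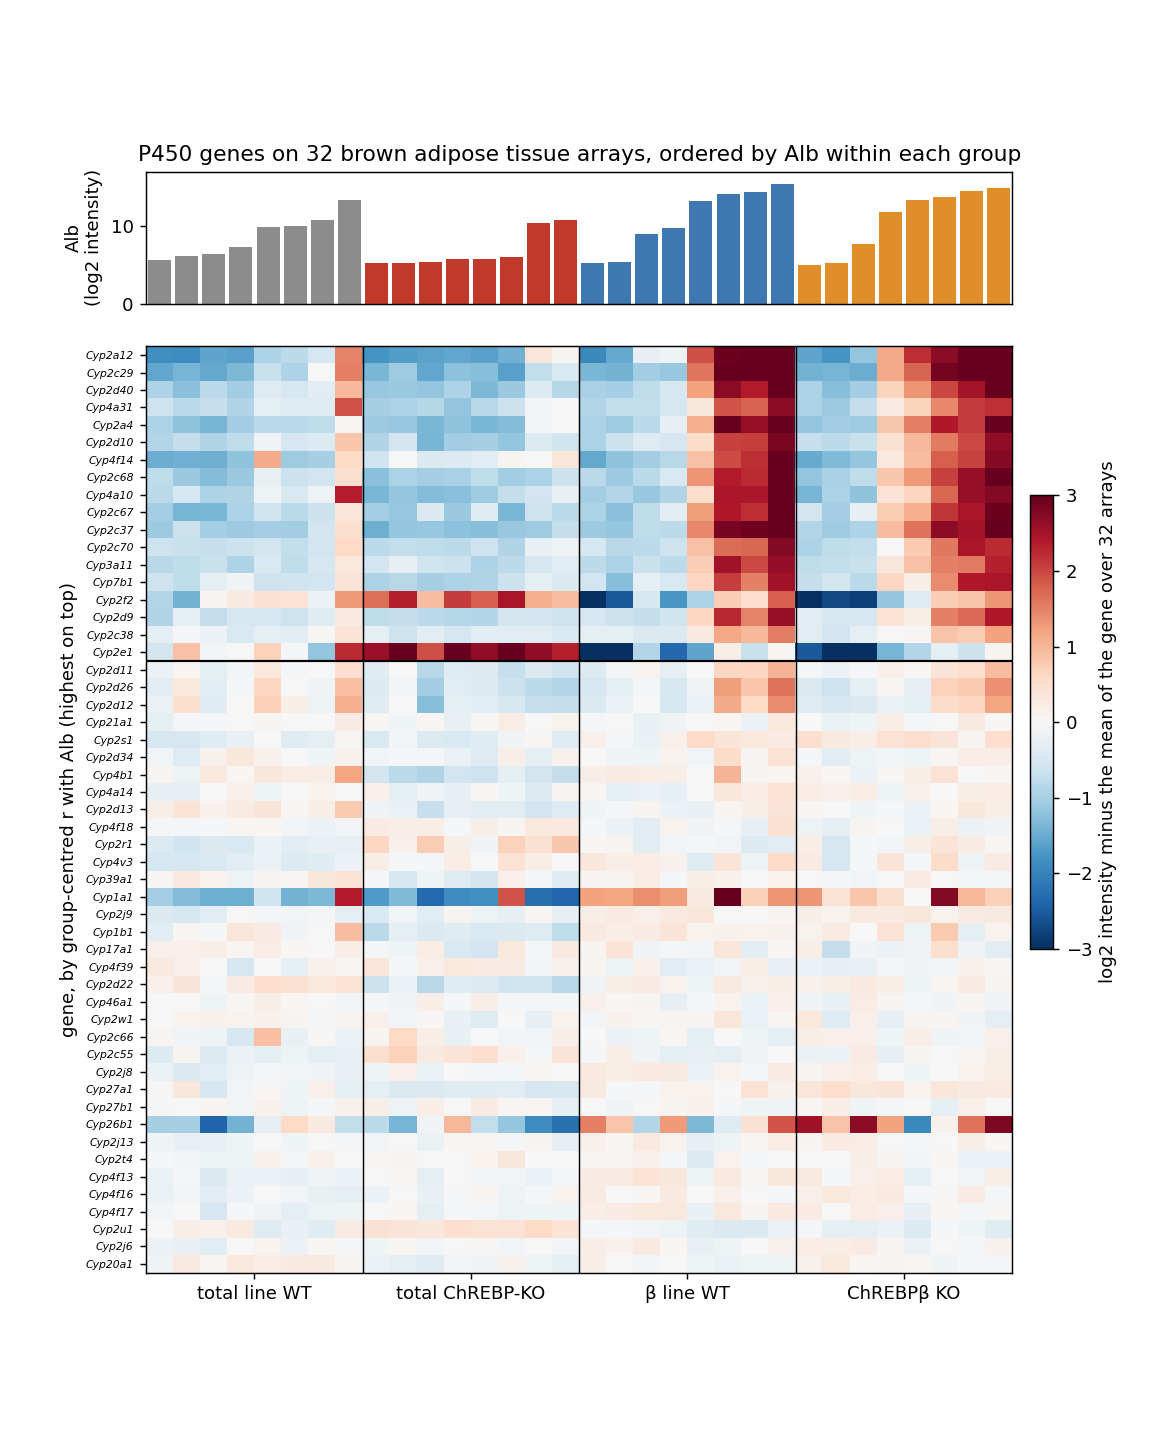
Heat map of the 53 P450 genes (rows, ordered by their r with Alb) on 32 arrays (columns, ordered by Alb within each group), under bars of the Alb log2 intensity; colour gives log2 intensity relative to the gene's own mean, with colours clipped at ±3. The 18 genes that follow Alb brighten together on arrays of high Alb, most often in the β-line groups, while Cyp2e1 is bright on all total ChREBP-KO arrays (14.69 to 16.03).

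Cyp2a12, a liver hydroxylase, followed albumin most closely, with an r of 0.97 and a slope of 0.50 log2 units for each log2 unit of Alb (SE 0.02). Its levels (lowest, median and highest) were 4.05, 4.67 and 7.43 in total-line WT mice, 4.14, 4.36 and 6.30 in total ChREBP-KO mice, 3.99, 6.83 and 10.07 in β-line WT mice and 4.17, 7.62 and 9.74 in ChREBPβ-KO mice. All 4 groups shared the same low end, and the high arrays were mainly of the β line. It was well above background on 4, 1, 6 and 5 of 8 arrays in the same order. The probe lies at chr7:27821770-27821829 on build mm9, the build of all probe positions given here.

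Cyp2c29, a liver epoxygenase of the large Cyp2c cluster, had an r of 0.91. Its levels were 4.43, 4.86 and 7.52 in total-line WT mice, 4.36, 4.73 and 5.53 in total ChREBP-KO mice, 4.58, 6.27 and 9.93 in β-line WT mice and 4.52, 7.44 and 9.69 in ChREBPβ-KO mice. Again the groups overlapped at the low end, and total ChREBP-KO mice had no high array. The probe, at chr19:39403642-39403701, was well above background on 14 of the 32 arrays.

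Cyp2d40, Cyp4a31 and Cyp2a4 came next. Cyp2d40 had an r of 0.90 and levels of 4.79, 5.40 and 7.02 in total-line WT mice, 4.71, 4.93 and 5.63 in total ChREBP-KO mice, 5.02, 6.41 and 9.04 in β-line WT mice and 4.77, 7.04 and 9.03 in ChREBPβ-KO mice. Cyp4a31, of a subfamily that hydroxylates fatty acids at their end, had an r of 0.89 and levels of 6.70, 7.11 and 9.51 in total-line WT mice, 6.42, 6.76 and 7.58 in total ChREBP-KO mice, 6.72, 7.52 and 10.30 in β-line WT mice and 6.51, 8.06 and 9.80 in ChREBPβ-KO mice. Cyp2a4, a steroid hydroxylase, had an r of 0.89 and levels of 4.68, 5.20 and 6.11 in total-line WT mice, 4.70, 4.90 and 6.08 in total ChREBP-KO mice, 5.02, 6.50 and 9.86 in β-line WT mice and 4.92, 7.24 and 9.60 in ChREBPβ-KO mice. In all 3 genes the groups overlapped at the low end and the highest arrays were β-line arrays.

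The relation was not equally close in every group. Within the 8 arrays of either β-line group, each of the 18 had an r with Alb of at least 0.85. In total-line WT mice it ran from 0.43 in Cyp2e1 to 0.94 in Cyp2a12, with 3 genes under 0.7, and in total ChREBP-KO mice from -0.60 in Cyp2f2 to 0.99 in Cyp2a12, with 8 genes under 0.7. Those 8 were Cyp2c38 at 0.08, Cyp2c67 at 0.24, Cyp2c68 at 0.58, Cyp2d9 at 0.59, Cyp2d10 at 0.66, Cyp3a11 at 0.38, Cyp2e1 and Cyp2f2. Alb was above 10 on 2 of the 8 total ChREBP-KO arrays. Without the 2 arrays whose Alb was farthest from the median, their r ranged from 0.68 in Cyp2e1 to 0.97 in Cyp2a12. The cluster of Cyp2c genes on chromosome 19 had 6 of its 8 measured members among the 18. Cyp2a had 2 of 2, Cyp4a had 2 of 3, Cyp2d had 3 of 9, Cyp4f had 1 of 6 and Cyp2j had 0 of 4. Probes of close paralogs may share signal, which was not tested. Of the names outside the rule, Cyp3a41a, Cyp2d37-ps, Cyp4a12a and Cyp4a12b had an r with Alb of 0.94, 0.90, 0.81 and 0.78, while Cyp51 had 0.37 and Cyp4b1-ps2 had -0.08.

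A gene was called when its adjusted p from limma was under 0.05. In total ChREBP-KO mice 2 of these 18 genes were called, Cyp2e1 and Cyp2f2, which is 11.1% beside 44.1% of all gene names, and the median log2 fold change of the 18 was -0.25, beside 0.01 over all gene names. In ChREBPβ-KO mice 0 of the 18 were called by limma, beside 2.70% of all gene names, 0 had an unadjusted p under 0.05, and their median was 0.03. Alb differed by -1.88 (SE 1.61, adjusted p = 0.368) in total ChREBP-KO mice. The spread within groups leaves wide intervals, such as -1.66 to 1.73 (95%) for Cyp2a12 in ChREBPβ-KO mice.

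**Figure D2:**
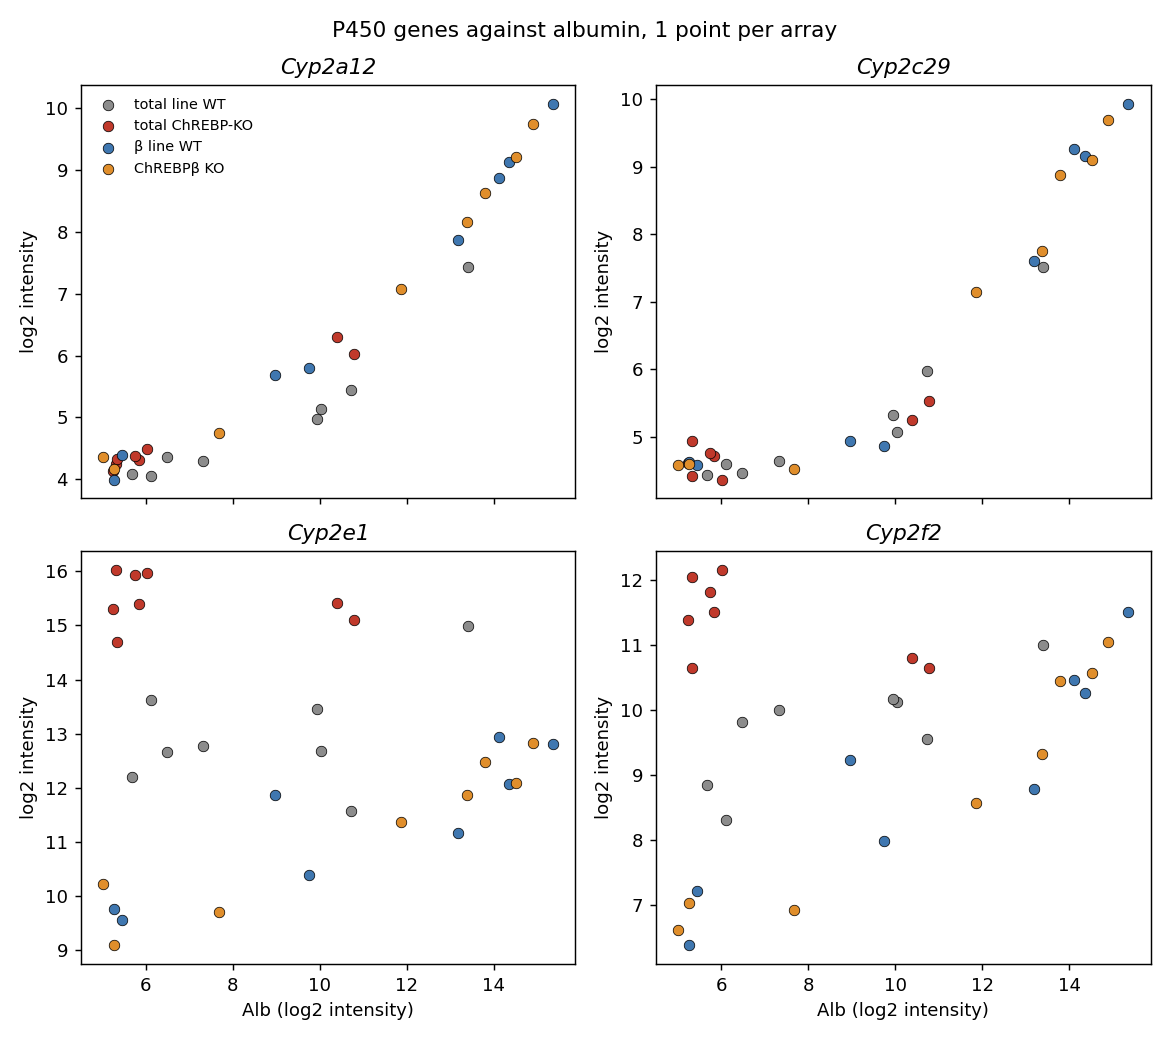
Log2 intensity of Cyp2a12, Cyp2c29, Cyp2e1 and Cyp2f2 (y axes) against that of Alb (x axis), with 1 point for each of 32 arrays, coloured by group. Cyp2a12 and Cyp2c29 rise with Alb across groups, while Cyp2e1 lies between 14.69 and 16.03 on the 8 total ChREBP-KO arrays at low and high Alb.

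Cyp2e1, which oxidises ethanol, acetone and other small molecules in liver, had levels of 11.57, 12.73 and 14.98 in total-line WT mice and 14.69, 15.41 and 16.03 in total ChREBP-KO mice. The groups touched through a single WT array, replicate 2, at 14.98. Cyp2e1 rose 5.60-fold in total ChREBP-KO mice, by 2.49 on the log2 scale (SE 0.52, adjusted p = 0.000226; 95% interval 1.42 to 3.55), with 8 of 8 KO arrays above the WT mean and an exact permutation p of 0.000311. Within the 4 wash batches the difference was 2.51, 1.60, 3.01 and 2.75, and the 1.60 of batch 2 rests on total ChREBP-KO replicate 5 alone. The probe lies at chr7:147960628-147960687, and the gene's second probe gave 2.52.

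Over the 8 total ChREBP-KO arrays Cyp2e1 had an r with Alb of -0.25, against 0.43 in their WT littermates, 0.88 in β-line WT mice and 0.94 in ChREBPβ-KO mice. Replicates 5 and 6, the 2 KO arrays with Alb above 10, had Cyp2e1 levels of 15.42 and 15.09, inside the range of the other 6. With Alb as a covariate the KO difference was 2.93 (SE 0.37, adjusted p = 1.20e-07), and without the 10 arrays of high Alb it was 2.77 (SE 0.32, adjusted p = 3.54e-07). The covariate fits a common slope to all groups, although r ranged from -0.25 to 0.94 between them.

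In the β line Cyp2e1 had levels of 9.56, 11.52 and 12.94 in β-line WT mice and 9.09, 11.61 and 12.83 in ChREBPβ-KO mice. The 2 groups covered nearly the same range. The difference was -0.12 (95% interval -1.18 to 0.95, adjusted p = 0.970). The effect of the ChREBPβ deletion minus that of the total deletion was -2.60 (SE 0.74, adjusted p = 0.00926), which lost its call with slide as a block, at -2.05 (SE 0.89, adjusted p = 0.112).

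Cyp2f2, a P450 of lung club cells and liver that oxidises naphthalene, had levels of 8.31, 9.91 and 10.99 in total-line WT mice, 10.65, 11.45 and 12.16 in total ChREBP-KO mice, 6.37, 9.01 and 11.51 in β-line WT mice and 6.60, 8.95 and 11.05 in ChREBPβ-KO mice. In the total line the highest WT array, at 10.99, exceeded the 3 lowest KO arrays, and the other WT arrays lay below all KO arrays. Cyp2f2 rose 3.14-fold, by 1.65 on the log2 scale (SE 0.64, adjusted p = 0.0362; exact permutation p = 0.000622), with 8 of 8 KO arrays above the WT mean. Its probe lies at chr7:27918570-27918629. The call was lost with slide as a block, at 1.26 (SE 0.87, adjusted p = 0.289), with processed signals, at 1.66 (SE 0.70, adjusted p = 0.0551), and without any of 7 arrays, namely total-line WT replicates 1, 6 and 7 and total ChREBP-KO replicates 1, 2, 3 and 7, where the difference was 1.45 to 1.63 (adjusted p 0.0512 to 0.0780). With Alb as a covariate it was 2.24 (SE 0.41, adjusted p = 4.33e-05), and fitted on its own 2 groups alone the adjusted p was 0.000478.

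Over the total ChREBP-KO arrays Cyp2f2 had an r with Alb of -0.60, against 0.78 in their WT littermates and 0.91 and 0.96 in the β-line groups. In ChREBPβ-KO mice it differed by -0.16 (95% interval -1.47 to 1.14, adjusted p = 0.964). The effects of the 2 deletions were not called as different for Cyp2f2, at -1.81 (SE 0.91, adjusted p = 0.152), but were with Alb as a covariate, at -2.40 (SE 0.58, adjusted p = 0.00228), and without the arrays of high Alb, at -2.68 (SE 0.64, adjusted p = 0.00542). Among all genes Cyp2e1 was most like Agt (angiotensinogen) at an r of 0.92, Trf (transferrin) at 0.90 and Cbs (cystathionine β-synthase) at 0.89, and Cyp2f2 was most like Cbs at 0.94.

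Cyp4f14, Cyp2a12, Cyp4a10 and Cyp2c38 of the albumin set were called in total ChREBP-KO mice under some alternatives only. Cyp4f14, a hydroxylase of leukotriene B4 and fatty acids, had levels of 4.76, 5.10 and 7.35 in total-line WT mice and 5.65, 6.07 and 6.60 in total ChREBP-KO mice. WT replicates 2 and 4, at 6.84 and 7.35, lay above all KO arrays, and the other 6 WT arrays lay below all of them. The difference was 0.58 (SE 0.63, adjusted p = 0.491), with 8 of 8 KO arrays above the WT mean. It was called with Alb as a covariate, at 1.23 (SE 0.31, adjusted p = 0.00167), with an Alb slope for each line, at 0.95 (SE 0.29, adjusted p = 0.00853), with the liver list as a covariate, at 0.90 (SE 0.22, adjusted p = 0.00134), and without the 10 arrays of high Alb, at 0.77 (SE 0.28, adjusted p = 0.0289).

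Cyp2a12, at -0.19 (SE 0.83, adjusted p = 0.876) in total ChREBP-KO mice, was called at 0.75 (SE 0.22, adjusted p = 0.00558) with Alb as a covariate and at 0.51 (SE 0.19, adjusted p = 0.0272) with a slope for each line. Its probe was well above background on 4 of 8 total-line WT and 1 of 8 total ChREBP-KO arrays, which limits these values. Cyp4a10 was called at -0.40 (SE 0.16, adjusted p = 0.0471) without the arrays of high Alb, and Cyp2c38 at -0.25 (SE 0.10, adjusted p = 0.0446) when its own 2 groups alone were fitted. The Cyp4a10 probe was well above background on 7 of 8 total-line WT and 2 of 8 total ChREBP-KO arrays, which limits its value too.

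Over the 53 members, 17 were called in total ChREBP-KO mice, 8 higher and 9 lower. That is 32.1% of the members, beside 44.1% of all gene names (22.9% higher and 21.1% lower), so the share called was below the background. Of the 35 members that did not follow Alb 15 were called, which is 42.9%, 6 higher and 9 lower, with a median log2 fold change of 0.01. Marker lists of other cells also differed between these groups: the mean of 4 macrophage markers was 9.39 to 10.24 in total-line WT mice and 8.89 to 9.28 in total ChREBP-KO mice, that of 6 fibroblast markers 11.10 to 12.03 and 11.03 to 11.30, that of the 2 measured of 3 adrenal markers 6.96 to 7.56 and 6.29 to 6.68, and the 1 measured of 3 kidney markers 5.95 to 6.48 and 7.004 to 7.47. The kidney markers Umod and Kap and the adrenal marker Hsd3b1 were not measured. The kidney and adrenal values therefore do not show that such cells were present. The part of macrophages and fibroblasts in the P450 changes was not tested.

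Of the 27 drug-oxidising genes 8 were called in total ChREBP-KO mice, 29.6% beside 44.1% of all gene names, 3 higher and 5 lower, and 4 of the 5 that fell were Cyp2d genes. The probes of the Cyp2d cluster lie between 82201687 and 82621829 on chromosome 15 of mm9, and the 9 genes had a median log2 fold change of -0.50. These 9 include Cyp2d9, Cyp2d10 and Cyp2d40 of the albumin set, and signal shared between the paralogs was not tested. Cyp2d22, a mouse relative of the human drug oxidiser CYP2D6, had levels of 8.54, 8.92 and 9.10 in total-line WT mice, 7.73, 7.97 and 8.39 in total ChREBP-KO mice, 8.44, 8.73 and 8.84 in β-line WT mice and 8.44, 8.72 and 8.86 in ChREBPβ-KO mice. Total ChREBP-KO mice lay below all arrays of the other 3 groups. Cyp2d22 fell by 0.86 on the log2 scale in total ChREBP-KO mice (SE 0.09, adjusted p = 1.02e-09; exact permutation p = 0.000155, the smallest that 8 against 8 arrays can give), and differed by 0.01 (95% interval -0.16 to 0.19) in ChREBPβ-KO mice. The effects differed by 0.88 (SE 0.12, adjusted p = 2.13e-06).

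Cyp2d13 had levels of 6.18, 6.34 and 6.92 in total-line WT mice and 5.44, 5.82 and 6.03 in total ChREBP-KO mice, with no overlap. It fell by 0.65 (SE 0.10, adjusted p = 2.03e-06), but a second probe for the gene differed by -0.04 (adjusted p = 0.767). Cyp2d11 and Cyp2d12 fell by 0.50 (SE 0.17, adjusted p = 0.0168) and 0.74 (SE 0.27, adjusted p = 0.0275). These 2 genes had an r with Alb of 0.68 and 0.62, close to the limit, and their calls were lost with slide as a block. The call of Cyp2d12 was also lost without total-line WT replicates 2 or 4 or total ChREBP-KO replicate 8 (-0.67 to -0.62, adjusted p 0.0564 to 0.0703). Cyp2d26 was not called, at -0.69 (SE 0.29, adjusted p = 0.0520), but was called at -0.76 without total ChREBP-KO replicate 2 or total-line WT replicate 5 or 7. It was also called with wash batch as a block, at -0.74 (SE 0.29, adjusted p = 0.0411), with the replicate number as a block, at -0.69 (SE 0.27, adjusted p = 0.0419), when its own 2 groups alone were fitted, at -0.69 (SE 0.18, adjusted p = 0.00379), with the liver list as a covariate, at -0.57 (SE 0.18, adjusted p = 0.0118), and without the arrays of high Alb, at -0.58 (SE 0.14, adjusted p = 0.00249).

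Cyp1b1, which oxidises oestradiol and polycyclic hydrocarbons, had levels of 6.77, 7.13 and 8.05 in total-line WT mice, 6.30, 6.68 and 6.85 in total ChREBP-KO mice, 7.21, 7.27 and 7.50 in β-line WT mice and 6.85, 7.23 and 7.89 in ChREBPβ-KO mice. In the total line only the lowest WT array reached into the KO range. Cyp1b1 fell by 0.62 (SE 0.13, adjusted p = 0.000281), with 8 of 8 KO arrays below the WT mean. Over the 32 group-centred arrays it had an r of 0.64 with the macrophage list and 0.49 with the fibroblast list. With the measured adrenal markers its r was 0.54, and with a list of lymphocyte markers 0.44. In ChREBPβ-KO mice it differed by -0.04 (95% interval -0.31 to 0.24).

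Cyp2c55, known for hydroxylating arachidonic acid, was the only Cyp2c gene called in total ChREBP-KO mice. Its levels were 5.61, 5.77 and 6.11 in total-line WT mice, 5.996, 6.41 and 6.72 in total ChREBP-KO mice, 5.76, 5.93 and 6.22 in β-line WT mice and 5.78, 6.05 and 6.27 in ChREBPβ-KO mice. Total ChREBP-KO mice were highest, and WT replicate 6 of the total line, at 6.11, was the only littermate above a KO array. Cyp2c55 rose by 0.59 (SE 0.09, adjusted p = 2.22e-06), while its second probe differed by -0.10 (adjusted p = 0.184). Its r with Alb was -0.12.

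**Figure D3:**
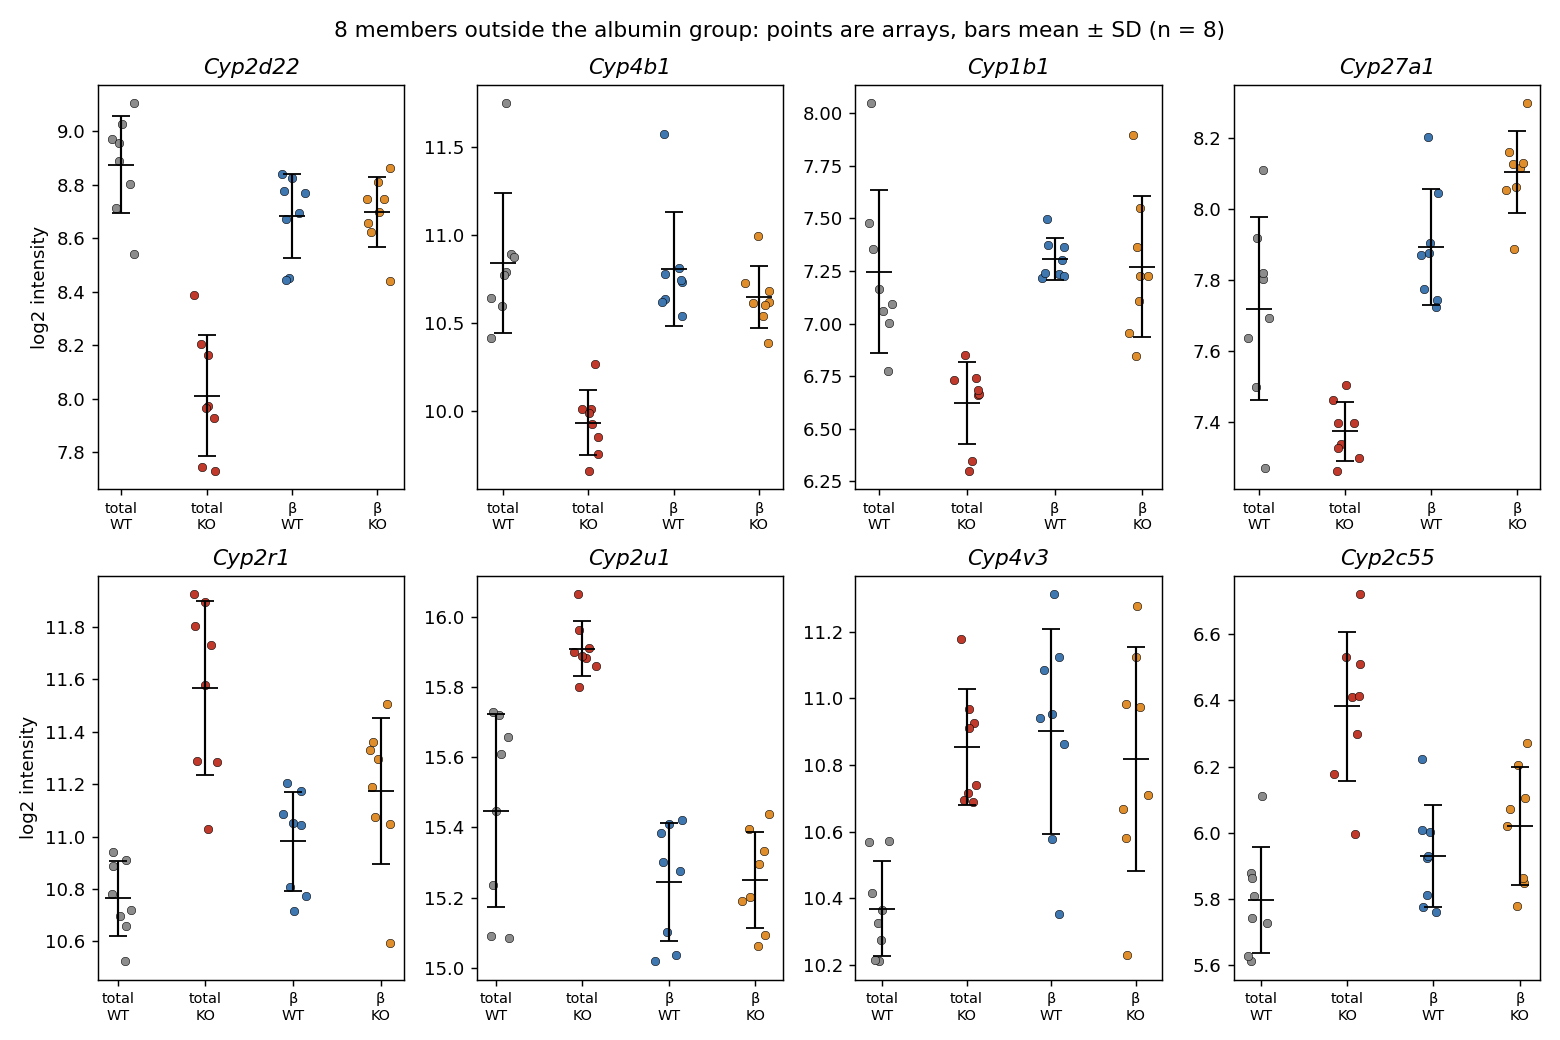
Log2 intensity (y axes) of 8 P450 genes outside the albumin set in the 4 groups (x axes); points are arrays and bars give the mean ± SD (n = 8). Relative to total-line WT mice, total ChREBP-KO mice lie lower for Cyp2d22, Cyp4b1, Cyp1b1 and Cyp27a1 and higher for Cyp2r1, Cyp2u1, Cyp4v3 and Cyp2c55, and the 2 β-line groups overlap for all 8 genes.

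Cyp1a1, the classic target of the aryl hydrocarbon receptor, was not called in either KO. Its levels were 5.65, 5.80 and 9.51 in total-line WT mice, 4.75, 5.27 and 9.02 in total ChREBP-KO mice, 7.40, 8.35 and 10.29 in β-line WT mice and 7.15, 7.89 and 9.87 in ChREBPβ-KO mice. Single arrays stood far above the rest: total-line WT replicate 2, total ChREBP-KO replicate 7 and β-line WT replicate 2. The difference was -0.70 (SE 0.53, adjusted p = 0.307) in total ChREBP-KO mice, and without KO replicate 7 it was -1.18 (SE 0.45, adjusted p = 0.0318). In ChREBPβ-KO mice it was -0.37 (95% interval -1.46 to 0.71).

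Of the 16 fatty acid and eicosanoid genes 5 were called in total ChREBP-KO mice, 31.2% beside 44.1% of all gene names, 4 higher and 1 lower. Cyp2u1, which hydroxylates arachidonic acid and other long fatty acids, had levels of 15.09, 15.53 and 15.73 in total-line WT mice, 15.80, 15.89 and 16.06 in total ChREBP-KO mice, 15.02, 15.29 and 15.42 in β-line WT mice and 15.06, 15.25 and 15.44 in ChREBPβ-KO mice. Total ChREBP-KO mice lay above every other array. Cyp2u1 rose by 0.46 (SE 0.09, adjusted p = 6.70e-05; exact permutation p = 0.000155). In ChREBPβ-KO mice this probe, at chr3:130996343-130996402, differed by 0.01 (95% interval -0.17 to 0.19), while another Cyp2u1 probe differed by 0.23 (SE 0.06, adjusted p = 0.0439). A further Cyp2u1 probe differed there by 0.18 (SE 0.06, adjusted p = 0.154).

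Cyp4b1, which hydroxylates fatty acids and furans, moved the other way. Its levels were 10.42, 10.78 and 11.75 in total-line WT mice, 9.66, 9.96 and 10.27 in total ChREBP-KO mice, 10.54, 10.74 and 11.58 in β-line WT mice and 10.38, 10.62 and 10.996 in ChREBPβ-KO mice. Total ChREBP-KO mice lay below every other array. Cyp4b1 fell by 0.91 (SE 0.14, adjusted p = 2.19e-06). In ChREBPβ-KO mice it differed by -0.16 (95% interval -0.44 to 0.12), and the effects differed by 0.75 (SE 0.19, adjusted p = 0.00464).

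Cyp4v3, a fatty acid hydroxylase, had levels of 10.21, 10.35 and 10.57 in total-line WT mice, 10.69, 10.83 and 11.18 in total ChREBP-KO mice, 10.35, 10.95 and 11.31 in β-line WT mice and 10.23, 10.84 and 11.28 in ChREBPβ-KO mice. The 2 groups of the total line did not overlap, and β-line arrays spread over both. Cyp4v3 rose by 0.48 in total ChREBP-KO mice (SE 0.12, adjusted p = 0.00161) and differed by -0.08 (95% interval -0.33 to 0.17) in ChREBPβ-KO mice. Cyp4f18 rose by 0.23 (SE 0.08, adjusted p = 0.0176), a call lost with slide as a block or with the mean of its probes. Cyp2j8 rose by 0.17 (SE 0.07, adjusted p = 0.0430), a call lost under 6 other settings and without any of 9 arrays, namely total-line WT replicates 2, 5, 6 and 7 and total ChREBP-KO replicates 1, 2, 5, 6 and 7 (0.14 to 0.17, adjusted p 0.0529 to 0.108).

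**Figure D4:**
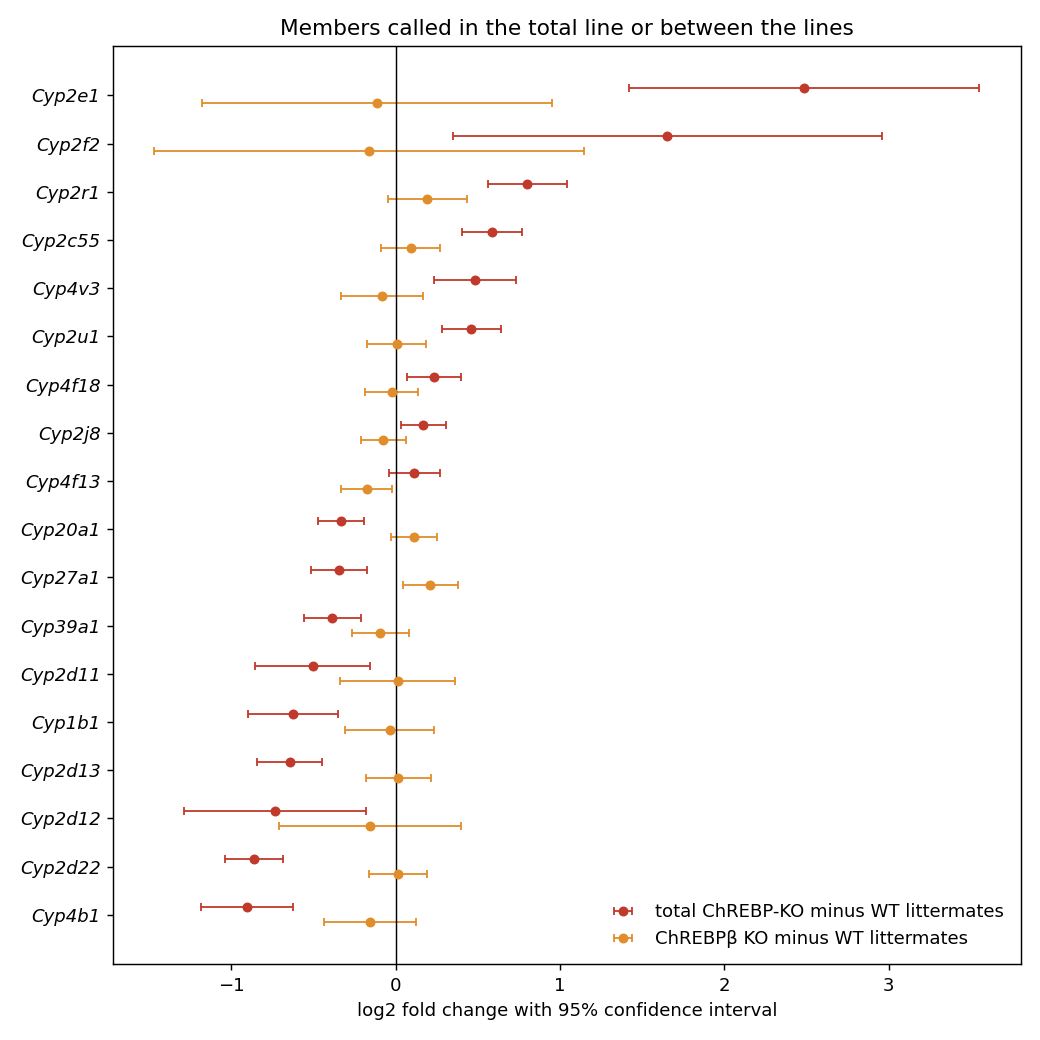
Log2 fold changes (x axis, points) with 95% confidence intervals (bars) of the 18 P450 genes called in total ChREBP-KO mice or between the effects of the 2 deletions (n = 8 per group). In total ChREBP-KO mice values run from -0.91 for Cyp4b1 to 2.49 for Cyp2e1, and in ChREBPβ-KO mice the intervals exclude 0 for Cyp4f13 and Cyp27a1 alone, neither of which was called.

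Of the 4 oxysterol and bile acid genes 2 were called in total ChREBP-KO mice, both lower, which is near the 44.1% of all gene names. Cyp39a1, which hydroxylates 24-hydroxycholesterol, had levels of 8.01, 8.25 and 8.59 in total-line WT mice, 7.61, 7.91 and 8.31 in total ChREBP-KO mice, 8.11, 8.25 and 8.38 in β-line WT mice and 8.08, 8.12 and 8.41 in ChREBPβ-KO mice. The groups of the total line overlapped in part. Cyp39a1 fell by 0.39 (SE 0.09, adjusted p = 0.000420), with 7 of 8 KO arrays below the WT mean, and differed by -0.09 (95% interval -0.27 to 0.08) in ChREBPβ-KO mice.

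Cyp27a1, the mitochondrial sterol 27-hydroxylase, had levels of 7.27, 7.75 and 8.11 in total-line WT mice, 7.26, 7.37 and 7.51 in total ChREBP-KO mice, 7.72, 7.87 and 8.20 in β-line WT mice and 7.89, 8.12 and 8.30 in ChREBPβ-KO mice. In the total line 2 WT arrays, replicates 2 and 5, lay within the KO range, and the other 6 lay above it. Cyp27a1 fell by 0.34 (SE 0.08, adjusted p = 0.000998). In ChREBPβ-KO mice it differed by 0.21 (SE 0.08), which did not pass after adjustment (adjusted p = 0.205). The effects of the 2 deletions differed by 0.56 (SE 0.12, adjusted p = 0.000597).

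Of the 3 vitamin A and D genes 1 was called in total ChREBP-KO mice, beside 44.1% of all gene names. Cyp2r1, the vitamin D 25-hydroxylase, had levels of 10.52, 10.75 and 10.94 in total-line WT mice, 11.03, 11.66 and 11.93 in total ChREBP-KO mice, 10.71, 11.05 and 11.20 in β-line WT mice and 10.59, 11.24 and 11.51 in ChREBPβ-KO mice. The groups of the total line did not overlap. Cyp2r1 rose 1.74-fold, by 0.80 on the log2 scale (SE 0.12, adjusted p = 1.53e-06), with 0.49, 0.79, 1.095 and 0.95 within the 4 wash batches, and its probe lies at chr7:121693769-121693828. The 0.79 of batch 2 rests on total ChREBP-KO replicate 5 alone. In ChREBPβ-KO mice it differed by 0.19 (95% interval -0.05 to 0.44), and the effects differed by -0.61 (SE 0.17, adjusted p = 0.00752).

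Cyp26b1, which degrades retinoic acid, spread widely within every group, from 6.20 to 9.21 in total-line WT mice and from 6.67 to 11.41 in ChREBPβ-KO mice. It was not called, at -0.17 (SE 0.57, adjusted p = 0.836) and 0.82 (SE 0.57, adjusted p = 0.607) in the 2 KO comparisons, and its r with Alb was -0.18. The third gene, the vitamin D 1-hydroxylase Cyp27b1, was not called.

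Neither of the 2 steroid hormone genes was called. Cyp17a1, the steroid 17-hydroxylase, had levels of 11.18, 11.35 and 11.43 in total-line WT mice, 10.61, 11.13 and 11.52 in total ChREBP-KO mice, 10.88, 11.20 and 11.60 in β-line WT mice and 10.47, 11.09 and 11.67 in ChREBPβ-KO mice. The 4 groups overlapped, and the differences were -0.19 (95% interval -0.46 to 0.08) and -0.15 (95% interval -0.42 to 0.12). Cyp20a1, an orphan with no settled substrate, had levels of 8.21, 8.55 and 8.62 in total-line WT mice, 7.96, 8.15 and 8.45 in total ChREBP-KO mice, 8.11, 8.21 and 8.49 in β-line WT mice and 8.18, 8.35 and 8.63 in ChREBPβ-KO mice. Its brightest probe fell by 0.33 in total ChREBP-KO mice (SE 0.07, adjusted p = 0.000223), and a further probe differed by -0.35 (SE 0.07, adjusted p = 0.000101). A different probe rose by 0.33 (SE 0.07, adjusted p = 0.000193), so the probes give the gene no single direction.

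In ChREBPβ-KO mice 0 of the 53 members were called by limma, beside 2.70% of all gene names. At an unadjusted p under 0.05 there were 2, Cyp27a1 and Cyp4f13 (-0.18, SE 0.08, adjusted p = 0.260). The count was also 0 under every alternative except 1: counting any probe of a gene gave 1, through the Cyp2u1 probe that differed by 0.23. The members' median log2 fold change was 0.01, and the values ran from -0.37 for Cyp1a1 to 0.82 for Cyp26b1. A p that misses the threshold does not show that levels were equal.

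The effects of the 2 deletions differed for 12 members, 22.6% beside 25.2% of all gene names. The ChREBPβ effect was the higher one for Cyp1b1, Cyp2d13, Cyp2d22, Cyp4b1, Cyp20a1 and Cyp27a1, and the lower one for Cyp2c55, Cyp2e1, Cyp2r1, Cyp2u1, Cyp4f13 and Cyp4v3. The Cyp1b1 difference of 0.59 (SE 0.19, adjusted p = 0.0215) lost its call with an Alb slope for each line, at 0.50 (SE 0.19, adjusted p = 0.0570), and without the arrays of high Alb, at 0.36 (SE 0.17, adjusted p = 0.164). Those of Cyp2c55 and Cyp2d13 lost theirs when the probes of each gene were averaged. Except for Cyp4f13, all 12 were among those called in total ChREBP-KO mice. The Cyp4f13 difference of -0.29 (SE 0.11, adjusted p = 0.0449) was lost under 31 of 47 alternatives, 22 of them leaving out 1 array, namely total-line WT replicates 2, 3, 4, 5, 7 and 8, total ChREBP-KO replicates 1, 2, 3, 4, 6 and 7, β-line WT replicates 1, 2, 3, 4, 6 and 8 and ChREBPβ-KO replicates 2, 4, 7 and 8 (-0.29 to -0.24, adjusted p 0.0517 to 0.0782).

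The WT groups of the 2 lines, which carry no deletion, differed as well. Of the 53 members 14 were called, 11 higher and 3 lower in β-line WT mice, 26.4% beside 38.9% of all gene names (24.8% higher and 14.1% lower). The mean of 6 skeletal muscle markers was 13.02 to 16.32 in total-line WT mice and 5.60 to 12.10 in β-line WT mice, and that of 5 endothelial markers 10.63 to 11.004 and 11.04 to 11.32, so line and tissue makeup cannot be told apart here. Cyp1a1, with its probe at chr9:57551535-57551594, was 4.26-fold higher in β-line WT mice, by 2.09 on the log2 scale (SE 0.53, adjusted p = 0.00217), and by 4.17, 0.75, 1.90 and 2.39 within the 4 wash batches. Batches 1 and 3 each held a single β-line WT array, replicates 2 and 7. Total-line WT replicate 2, at 9.51, was the only array of its group inside the β-line WT range.

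Cyp2a4, Cyp2c37 and Cyp2c67 of the albumin set were higher in β-line WT mice by 1.79 (SE 0.65, adjusted p = 0.0282), 1.62 (SE 0.65, adjusted p = 0.0483) and 1.52 (SE 0.56, adjusted p = 0.0311). Cyp2c37 had levels of 5.08, 5.15 and 6.66 in total-line WT mice and 5.02, 6.51 and 9.72 in β-line WT mice, and Cyp2c67 had levels of 5.20, 5.72 and 6.96 in total-line WT mice and 5.33, 7.06 and 9.76 in β-line WT mice. In each of the 3 genes the low β-line arrays overlapped the total-line range. Of 8 total-line WT and 8 β-line WT arrays, 6 and 6 were well above background for Cyp2a4. The counts were 5 and 4 for Cyp2c37 and 6 and 7 for Cyp2c67. Within wash batch 2 the differences were -0.08, -0.75 and -0.34, against the pooled direction. Without the 10 arrays of high Alb they were 0.23, -0.03 and 0.14, none of them called.

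These 3 calls also rested on single arrays. Cyp2a4 lost its call without any of β-line WT replicates 2, 6 and 7 (1.39 to 1.55, adjusted p 0.0644 to 0.0806). Cyp2c67 lost it without any of total-line WT replicates 5 and 6 and β-line WT replicates 2, 5, 6 and 7 (1.17 to 1.44, adjusted p 0.0516 to 0.0844). Cyp2c37 lost it without any of 11 arrays, total-line WT replicates 1, 3, 4, 5, 6, 7 and 8 and β-line WT replicates 2, 5, 6 and 7 (1.23 to 1.64, adjusted p 0.0577 to 0.123). Cyp2a12, at 2.00 (SE 0.83, adjusted p = 0.0555), was called with wash batch as a block, at 2.14 (SE 0.81, adjusted p = 0.0350), with the replicate number as a block, at 2.00 (SE 0.72, adjusted p = 0.0286), and with Alb as a covariate, at 0.95 (SE 0.22, adjusted p = 0.000820). Alb itself differed by 2.09 (SE 1.61, adjusted p = 0.318).

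Cyp2e1 went the other way and was lower in β-line WT mice by 1.67 on the log2 scale (SE 0.52, adjusted p = 0.0111), with -0.13, -3.92, 0.19 and -1.25 within the 4 wash batches. The values -0.13 and 0.19 each rest on a single β-line WT array. With Alb as a covariate its difference was -2.16 (SE 0.37, adjusted p = 2.94e-05). Cyp2j8, Cyp2j9, Cyp2s1, Cyp4f13, Cyp4f16, Cyp4f17 and Cyp4v3 were higher in β-line WT mice by 0.25 to 0.53. Cyp2d13 and Cyp20a1 differed by -0.27 and -0.23, and another probe of each gave the opposite sign. A further Cyp20a1 probe differed by -0.13 (adjusted p = 0.125). The Cyp2d13 call was lost without any of total-line WT replicates 2 and 6 and β-line WT replicates 1, 3 and 5 (-0.25 to -0.20, adjusted p 0.0512 to 0.0828).

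Partners of the P450 enzymes and relatives outside the naming rule were taken from a list of 23 gene names, of which 21 were measured. The names Fdx2 and Ahrr had no measured probe, but Fdx1l, an older name of Fdx2, was among the 21. In total ChREBP-KO mice 13 of the 21 were called, 61.9% beside 44.1% of all gene names, 6 higher and 7 lower. In ChREBPβ-KO mice 0 were called by limma, beside 2.70% of all gene names, and 3 had an unadjusted p under 0.05. Pgrmc2, a haem-binding partner of P450s, was called there at -0.30 (adjusted p = 0.0475) with processed signals, at -0.33 (adjusted p = 0.00855) without β-line WT replicate 7 and at -0.29 (adjusted p = 0.0476) without β-line WT replicate 5. Por, the electron donor of microsomal P450s, had mean levels of 15.00 in total-line WT mice and 15.05 in total ChREBP-KO mice, a difference of 0.05 (SE 0.09, adjusted p = 0.645). Alas1, the first enzyme of haem synthesis, rose by 0.92 (SE 0.14, adjusted p = 1.91e-06), and Hmox1, which breaks haem down, rose by 1.23 (SE 0.20, adjusted p = 7.18e-06). Both exceeded the WT mean on 8 of 8 arrays from KO mice. Between the WT groups, which carry no deletion, 12 of the 21 were called, 8 higher and 4 lower in β-line WT mice. That is 57.1% beside 38.9% of all gene names. Hmox1 and Alas1 were among these 12, at -1.03 and 0.72.

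The epoxide hydrolases, which act on products of P450s, moved in opposite directions. The microsomal Ephx1 fell by 1.84 (SE 0.12, adjusted p = 8.56e-14), from a mean level of 13.83 to 11.99. The soluble Ephx2, which hydrolyses fatty acid epoxides, rose by 0.68 (SE 0.08, adjusted p = 1.43e-08). Cyp51, the lanosterol demethylase of cholesterol synthesis, fell by 1.35 (SE 0.16, adjusted p = 4.33e-08), and the prostacyclin synthase Ptgis fell by 1.23 (SE 0.16, adjusted p = 2.23e-07). The WT groups also differed, with β-line WT minus total-line WT at -0.68 for Cyp51, 0.48 for Ptgis and -0.34 for Ephx1, all called. For Ephx2 it was 0.09, not called. Ahr, the receptor that induces Cyp1a1, differed by -0.20 (SE 0.10, adjusted p = 0.127) in total ChREBP-KO mice and was higher in β-line than in total-line WT mice by 0.55 (SE 0.10, adjusted p = 0.000100).

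**Figure D5:**
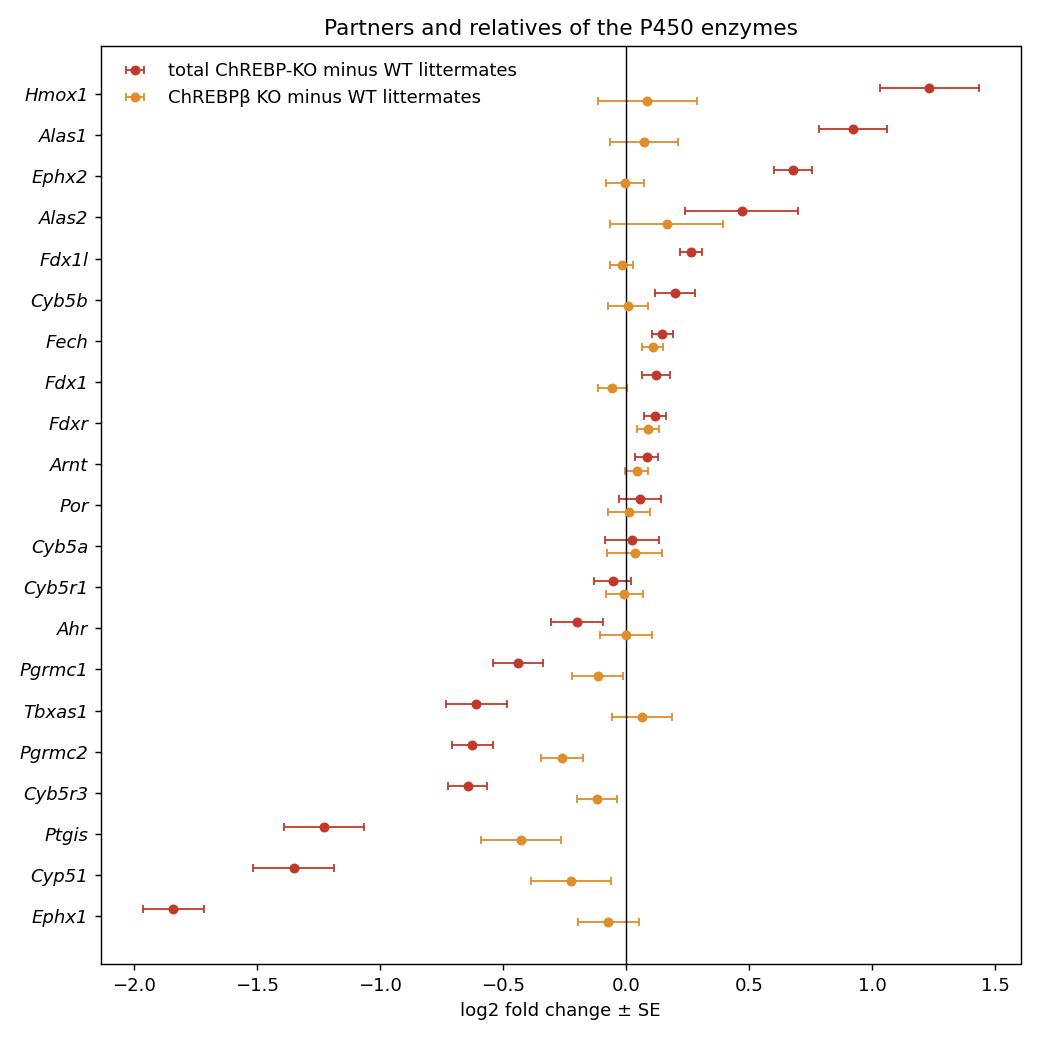
Log2 fold changes (x axis, points) ± SE (bars) of the 21 measured partners and relatives of P450 enzymes in total ChREBP-KO and ChREBPβ-KO mice against their WT littermates (n = 8 per group). In total ChREBP-KO mice values run from -1.84 for Ephx1 to 1.23 for Hmox1, and in ChREBPβ-KO mice from -0.43 for Ptgis to 0.16 for Alas2.

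In the fit of group means alone, 26 of the 53 members were called at least once over the 4 comparisons. The genes never called there by their brightest probe were 13 of the albumin set (Cyp2a12, Cyp2c29, Cyp2c38, Cyp2c68, Cyp2c70, Cyp2d9, Cyp2d10, Cyp2d40, Cyp3a11, Cyp4a10, Cyp4a31, Cyp4f14 and Cyp7b1) and, of the others, Cyp2c66, Cyp2d26, Cyp2d34, Cyp2j6, Cyp2j13, Cyp2t4, Cyp2w1, Cyp4a14, Cyp4f39, Cyp17a1, Cyp21a1, Cyp26b1, Cyp27b1 and Cyp46a1. Some of these were called under alternatives. Between the WT groups, Cyp2c68, Cyp2d9 and Cyp3a11 were called with wash batch or replicate number as a block. Cyp2j6 and Cyp2j13 were called there with Alb as a covariate.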

How the data were processed

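Brown adipose tissue RNA of 32 mice was labelled with Cy3 and hybridised to Agilent 8x60K arrays, 8 mice in each of 4 groups named by the labels. The deposited scanner files hold the intensity of each spot, written by Agilent Feature Extraction 10.10.1.1 per the file headers, and the authors' table holds quantile-normalized log2 values. Because the scanner files were at hand, levels were made anew by the study's steps: a spot was kept when 26 or more of the 32 arrays, or 6 or more of a group, flagged it as found, significant and well above background, the median intensity was taken as log2 and quantile normalized, and replicate spots were combined by their median. The result differed from the authors' table by 0.00298 on average. On each array 64.4% to 71.1% of spots were well above background and 0 were saturated, and the number of arrays limits the precision. Each gene is its brightest kept probe.

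limma 3.58.1 in R 4.3.3 was fitted to all 32 arrays with 4 group means, and p-values were adjusted by Benjamini-Hochberg over all 37306 probes of a contrast. Single values were also tested by the exact two-sided permutation test over 12870 assignments. Tables and plots were made with Python 3.11.15, numpy 2.4.6, pandas 2.3.3, scipy 1.17.1 and matplotlib 3.10.9. The limma script was tested on simulated data. Full values were given for members that were called and changed 2-fold or more, for the 5 members of highest r with Alb and for the brightest member of each class; other members were named after their values were seen. Members and lists were chosen with earlier results of these data known. The labels do not say whether animals shared a litter, so p-values measure the spread between these samples. Alternatives covered signal and normalization, filters, wash batch, slide and replicate number as blocks, Alb or a liver marker list as a covariate, choice of probe, thresholds and leaving out each array. The Alb covariate fits a common slope to all groups, although the relation to Alb differed between groups for members such as Cyp2e1 and Cyp2f2. The Alb covariate with a slope for each line was added after seeing the data.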

Additional observations from a re-analysis of the deposited data

Results flagged for a closer look

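Single arrays stood apart from the other 7 of their group in 20 of 212 tests by Dixon's criterion (9.43%), where chance gives about 1 in 20. Total-line WT replicate 2, the array of highest Alb in its group (13.40), was the high one for 12 genes. Its log2 levels were 9.51 for Cyp1a1, 6.11 for Cyp2a4, 7.43 for Cyp2a12, 6.66 for Cyp2c37, 6.96 for Cyp2c67, 7.95 for Cyp2c70, 9.43 for Cyp2d10, 7.02 for Cyp2d40, 6.41 for Cyp3a11, 8.08 for Cyp4a10, 9.51 for Cyp4a31 and 11.75 for Cyp4b1. The other arrays that stood apart were total ChREBP-KO replicate 7 for Cyp1a1 at 9.02, β-line WT replicate 2 for Cyp1a1 at 10.29, total-line WT replicate 4 for Cyp2c66 at 5.75, total ChREBP-KO replicate 7 for Cyp2t4 at 6.31, β-line WT replicate 5 for Cyp2t4 at 5.57, β-line WT replicate 2 for Cyp4b1 at 11.58, β-line WT replicate 5 for Cyp4f17 at 8.48 and ChREBPβ-KO replicate 7 for Cyp39a1 at 8.41. 

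The effect of the ChREBPβ deletion minus that of the total deletion passed the test of the difference for 12 genes. On the log2 scale it was 0.59 for Cyp1b1, -0.49 for Cyp2c55, 0.66 for Cyp2d13, 0.88 for Cyp2d22, -2.60 for Cyp2e1, -0.61 for Cyp2r1, -0.45 for Cyp2u1, 0.75 for Cyp4b1, -0.29 for Cyp4f13, -0.57 for Cyp4v3, 0.44 for Cyp20a1 and 0.56 for Cyp27a1. Of these, Cyp20a1, Cyp2d13, Cyp2c55 and Cyp4f13 have another probe with the opposite sign.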

How the results depend on the processing

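Members called in total ChREBP-KO mice numbered 17, and 9 at a change of at least 1.5-fold. In ChREBPβ-KO mice 0 were called, and 1 when any probe of a gene counted. The difference between the effects gave 12, and 6 at 1.5-fold. The WT groups gave 14, but 9 at an adjusted p under 0.01, 5 at 1.5-fold and 6 with probes well above background on all arrays, a filter that left fewer genes to test and 24 of the 43 calls of named members. Partners gave 0 calls in ChREBPβ-KO mice but 1 with processed signals, and 10 for the difference but 6 without the arrays of high Alb, which leaves 22 arrays. Leaving out 1 array at a time gave 15 to 17, 0 to 0, 11 to 14 and 11 to 21 members in these 4 comparisons, the 21 without β-line WT replicate 4, with 12 to 15, 0 to 1, 10 to 12 and 10 to 12 partners, and 38 to 43 named calls. Between 17 and 22 members followed Alb under 6 alternatives.

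With probes well above background on all arrays another probe stands for the gene, and signs reversed: Cyp20a1 was at 0.33 in total ChREBP-KO mice, -0.26 for the difference and 0.40 between the WT groups, and Cyp2d13 at -0.0535 for the difference and 0.35 between the WT groups. Averaging all probes of a gene put Cyp20a1 and Cyp2d13 at 0.0114 and 0.0385 between the WT groups. Without the arrays of high Alb, Cyp2c37 was at -0.0275 there.

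Replicate numbers are shared by the 4 groups, but the labels do not say that they pair mice. Same-numbered arrays correlated at -0.304 to 0.532 (48 pairs, median 0.0543). Between β-line WT and ChREBPβ-KO arrays 6 of 8 same-numbered pairs were over 0.1 (-0.196 to 0.532, median 0.246), and between the total-line groups 0 of 8 were (-0.304 to 0.0801). Not every pair was over 0.1, and 3 of 32 arrays were best matched by their own number. The replicate block gave 18, 0, 12 and 18 members, 14, 0, 11 and 12 partners, and 43 of 43 named calls. Dim members limit what can be seen: 22 of the 53 were well above background on all 32 arrays.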
